A study of Mus musculus with 20 samples.

Results

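The vomeronasal type 2 receptors (V2Rs, gene symbols Vmn2r) were examined as a silent, clustered gene family in a list of accessible regions from mouse embryonic stem (ES) cells. The members were the protein-coding genes of the GENCODE M21 annotation of the mouse genome build mm10 (GRCm38) whose symbol begins with Vmn2r, and 122 of 21938 protein-coding genes met this rule. The rule uses the annotation and the symbol and no measured value. The comparison asks whether a receptor family of sensory neurons carries, in ES cells, accessible regions at its gene starts, in its gene bodies or around them. Accessibility is not transcription, and the word silent was not checked here.

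V2Rs are G protein-coupled receptors with a large extracellular domain that binds peptide and protein pheromones, such as exocrine gland-secreting peptides and major urinary proteins. They are made by the sensory neurons of the basal layer of the vomeronasal organ, where each neuron typically makes 1 receptor of the large subfamilies together with a broadly shared receptor of the family of Vmn2r1 to Vmn2r7. The receptor genes lie in tandem clusters of close relatives, with long introns and promoters that are poor in CpG dinucleotides.

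The accessible regions came from ATAC-seq, in which a transposase cuts open chromatin and adds sequencing adapters. ZHBTc4 is a mouse ES cell line in which Pou5f1, the gene of OCT4, is expressed from a Tet-Off promoter that doxycycline (dox) switches off. The cells instead expressed, from lentiviral vectors, OCT4 with a SNAP tag and either the mitotic degron of Cyclin B1 (MD-OCT4), which removes the protein as cells leave mitosis, or a mutated degron that spares it (MD*-OCT4), together with the cell cycle reporter YPet-MD. All 16 libraries behind the list were from cells in dox for 40 h, sorted by YPet-MD and Hoechst into 4 phases (the beginning of G1, its end, S phase, and late S with G2), with 2 replicates for each of 8 groups. The 4 libraries of unsorted cells without dox were no part of it. The transduced cells were sorted as populations for similar SNAP and YPet levels, and Pou5f1 under the Tet-Off promoter was switched off in all 8 groups.

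The deposited list gives the position of each of 102373 peaks merged over the 16 libraries, with no height, count or value for any library. Sequencing depth is therefore unknown, the groups and phases cannot be compared at the V2R genes, and there are no replicates of any value below. Intervals are 95% intervals, which treat genes as independent and cover counting error only, and neighbouring V2R genes share surroundings and sequence. A peak lay within 1000 bp of the start of 66.4% of the protein-coding genes other than V2R genes. Of 8 ES cell markers, 6 had a peak within 1000 bp of their start, which is near that share. Nanog and Esrrb did not, with nearest peaks at 1481 and 4663 bp, and held 3 and 26 peaks in their gene bodies. All 5 markers of vomeronasal sensory neurons (Omp, Trpc2, Gnao1, Gng8 and Tfap2e) also had a promoter peak, so a peak at a gene start in this list does not tell which cell type uses the gene.

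Gene starts that carry a finding are shown first. RefSeq gives promoters of 300 bases, from 250 before to 50 after the transcription start, for 115 of the 122 members on build GRCm38.p6. The promoters of Vmn2r87 (chr10:130497330-130497629, minus strand) and Vmn2r12 (chr5:109097815-109098114, minus strand) belong to members with a peak within 1000 bp of their start. CG dinucleotides are in capitals.
Vmn2r87 promoter: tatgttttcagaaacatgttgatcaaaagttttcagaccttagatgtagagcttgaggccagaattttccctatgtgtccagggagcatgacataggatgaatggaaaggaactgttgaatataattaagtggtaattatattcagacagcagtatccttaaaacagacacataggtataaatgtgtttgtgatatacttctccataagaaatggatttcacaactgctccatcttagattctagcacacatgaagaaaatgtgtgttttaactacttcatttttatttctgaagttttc
Vmn2r12 promoter: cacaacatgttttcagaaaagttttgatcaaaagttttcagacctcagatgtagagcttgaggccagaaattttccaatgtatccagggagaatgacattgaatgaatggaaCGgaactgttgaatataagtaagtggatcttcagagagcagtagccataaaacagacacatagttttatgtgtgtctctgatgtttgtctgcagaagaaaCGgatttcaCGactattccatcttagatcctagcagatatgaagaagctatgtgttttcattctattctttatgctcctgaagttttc
The Vmn2r87 promoter holds 0 CG dinucleotides and that of Vmn2r12 holds 3, and the longest run of bases they share is 23. The peak inside Vmn2r3 (chr3:64289238-64289394, printed on the minus strand of the gene), which has no CG either, is the third of the promoter peaks.
Vmn2r3 peak: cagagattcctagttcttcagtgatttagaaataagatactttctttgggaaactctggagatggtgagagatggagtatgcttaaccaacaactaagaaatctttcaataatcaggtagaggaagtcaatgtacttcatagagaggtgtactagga

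Vmn2r29 is the member for which RefSeq gives a second start, and it was chosen for display after its values were seen. The start near the GENCODE gene start (chr7:7247279-7247578, minus strand) has 0 CG dinucleotides and no peak, and the other (chr7:7278240-7278539, minus strand), 30962 bp upstream, has 23 and lies in a peak.
Vmn2r29 promoter at the gene start: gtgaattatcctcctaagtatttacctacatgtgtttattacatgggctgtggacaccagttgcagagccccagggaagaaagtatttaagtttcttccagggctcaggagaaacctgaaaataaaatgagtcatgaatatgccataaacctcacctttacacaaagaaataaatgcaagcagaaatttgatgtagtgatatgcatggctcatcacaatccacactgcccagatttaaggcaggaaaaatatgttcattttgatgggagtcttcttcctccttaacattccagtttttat
Vmn2r29 upstream promoter: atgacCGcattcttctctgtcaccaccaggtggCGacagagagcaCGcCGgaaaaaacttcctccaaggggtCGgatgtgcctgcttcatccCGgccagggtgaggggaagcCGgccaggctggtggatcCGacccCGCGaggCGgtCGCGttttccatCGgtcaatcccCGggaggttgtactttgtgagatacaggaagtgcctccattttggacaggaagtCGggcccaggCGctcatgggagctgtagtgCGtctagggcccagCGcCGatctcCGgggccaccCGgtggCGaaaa
The peak over the upstream start (chr7:7277732-7278626) is 895 bp wide and also covers the starts of the protein-coding gene Gm45844 and of the pseudogene Gm18190. The other 115 V2R promoters held at most 4 CG dinucleotides each.

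The last pair shows how alike the genes of a cluster can be. Vmn2r40 is among the 5 members farthest from any peak, and its promoter (chr7:8931353-8931652, minus strand) and that of Vmn2r41 (chr7:8161502-8161801, minus strand) differ at 1 of 300 positions, which is in capitals.
Vmn2r40 promoter: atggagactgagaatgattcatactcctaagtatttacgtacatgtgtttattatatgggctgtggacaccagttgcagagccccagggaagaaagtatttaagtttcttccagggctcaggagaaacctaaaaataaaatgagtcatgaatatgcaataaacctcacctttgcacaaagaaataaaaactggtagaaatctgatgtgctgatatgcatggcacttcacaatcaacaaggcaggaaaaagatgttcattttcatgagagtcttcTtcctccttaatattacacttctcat
Vmn2r41 promoter: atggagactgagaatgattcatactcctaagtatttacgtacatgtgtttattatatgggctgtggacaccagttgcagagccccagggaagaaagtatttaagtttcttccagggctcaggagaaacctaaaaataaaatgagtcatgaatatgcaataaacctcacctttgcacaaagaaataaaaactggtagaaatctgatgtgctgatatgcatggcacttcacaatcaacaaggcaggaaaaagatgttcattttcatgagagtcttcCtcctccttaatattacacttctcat
Compared base by base without gaps, 73 of 6555 pairs of V2R promoters were at least 90% identical, 15 were at least 98% identical and 3 were identical. These 73 pairs took in 41 of 115 members, and both genes of each pair lay in the same cluster. Short reads from such starts cannot always be placed, and how the study's alignment treated reads with several matches is not given in the sources used here. The part of such reads in the values below was not tested.

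Peaks at V2R gene starts were rare. A peak lay within 1000 bp of the start of 3 of 122 members, or 2.46% (Wilson interval 0.840 to 6.98%), against 66.4% of the 21816 other protein-coding genes. The 3 members were Vmn2r87, Vmn2r3 and Vmn2r12, on chromosomes 10, 3 and 5. At Vmn2r87 the peak (chr10:130497233-130497398) was 166 bp wide and covered the gene start, with 164 bp inside the gene and 2 bp upstream, and its centre fell in coding sequence. The peak at Vmn2r3 was 157 bp wide and lay in an intron, 315 bp downstream of the start. Vmn2r12 had the widest of the 3, an intronic peak of 662 bp (chr5:109096364-109097025) that began 925 bp downstream and was 66.0% soft-masked repeat. These 3 are also the members just inside the limit of 1000 bp. Just outside it were Vmn2r111 at 1418 bp, Vmn2r86 at 1458 bp and Vmn2r90 at 1558 bp, each with its nearest peak upstream. Relative to RefSeq starts, the Vmn2r3 peak lies 1821 bp away and the Vmn2r12 peak 839 bp away, so the 3 members called with RefSeq starts were Vmn2r87, Vmn2r12 and Vmn2r29. Among peaks of at least 300 bp, 1 member (0.820%) kept a promoter peak, against 64.3% of the other genes.

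The distance from a gene start to the nearest listed peak was long for most members, though chromatin without a listed peak may still be accessible. Its median was 40078.5 bp over the V2R genes (interval 30404 to 49794 bp) and 0 bp over the other protein-coding genes, and the quartiles of the V2R genes were 19747 and 114496 bp. A peak lay within 5000 bp of 12 members and within 10000 bp of 18. The nearest peak was more than 100000 bp away for 32 members, or 26.2%, against 4.78% of the other genes. The 5 farthest all lay in the cluster of Vmn2r29 to Vmn2r52 on chromosome 7: Vmn2r37 at 777671 bp, Vmn2r38 at 733505 bp, Vmn2r39 at 666422 bp, Vmn2r40 at 567059 bp and Vmn2r36 at 390361 bp. At these 5 starts between 0 and 6.75% of the 31-mers (31-base words) within 1000 bp occur once in the assembled chromosomes. Among peaks of at least 300 bp the median distance of the V2R genes was 64535 bp. Nearest peaks were upstream for 62 members and downstream for 59, and 84 distinct peaks served all 122 members.

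**Figure D1:**
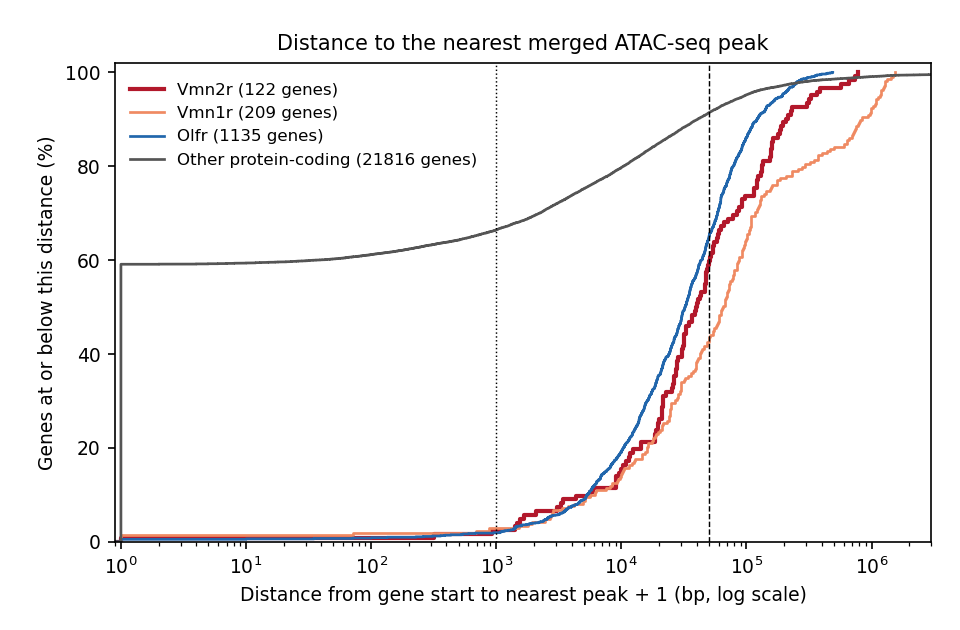
Cumulative share of genes (y axis, %) by distance from the gene start to the nearest peak (x axis, bp plus 1, log scale) for Vmn2r, Vmn1r and Olfr genes and for all protein-coding genes other than Vmn2r, a group that holds the Vmn1r and Olfr genes. The dotted line marks 1000 bp, by which 66.4% of the other genes but 2.46% of the Vmn2r genes have a peak, and the dashed line marks 50000 bp.

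Vmn2r1 to Vmn2r7, the broadly shared receptors, sit together on chromosome 3 and ranged widely. Vmn2r3 had 3 peaks in its gene body and 5 within 50000 bp of its start. Vmn2r7 had its nearest peak at 2075 bp and 4 peaks in its gene body. The GENCODE model of Vmn2r7 spans 159722 bp and overlaps Gm26939, whereas its RefSeq start lies 125162 bp farther downstream, and all 4 peaks are upstream of that RefSeq start. The other 5 had no peak in their gene bodies. Their nearest peaks were 41223 bp away for Vmn2r1, 53911 bp for Vmn2r2, 92754 bp for Vmn2r4, 187228 bp for Vmn2r5 and 206917 bp for Vmn2r6. Thus 1 of these 7 had a promoter peak and 4 had none within 50000 bp, and among the other 115 members 2 had a promoter peak and 45 had none within 50000 bp. The promoters of Vmn2r6 and Vmn2r7, as RefSeq gives them, were 99.3% identical.

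More members had a peak in the gene body than within 1000 bp of the start, and the gene body is the longer stretch. At least 1 peak overlapped the gene body of 23 members, or 18.9% (12.9 to 26.7%), against 76.2% of the other genes. V2R genes are the longer ones, with a median of 27024.5 bp against 17311.5 bp, and per 100000 bp of gene they held 0.999 peaks against 5.97. Of the 23 members, 15 had 1 peak, 3 had 2, 4 had 3 and Vmn2r7 had 4. The 4 members with 3 peaks were Vmn2r3, Vmn2r24, Vmn2r111 and Vmn2r112. Leaving out the 1000 bp nearest the start left all 23 members with a peak and 59.6% of the other genes. Among peaks of at least 300 bp the share was 9.84%, against 73.5% of the other genes, and the density 0.432 per 100000 bp against 4.05.

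The 37 peaks in V2R gene bodies were narrow, with a median of 284 bp and a range of 150 to 1016 bp. The centre of 25 lay in an intron, of 9 in a non-coding exon and of 2 in a coding exon, those of Vmn2r87 and Vmn2r90, and the remaining centre lay just outside a gene. At least 50% of the bases were soft-masked in 16 of the 37, and none was within 1000 bp of the start of another protein-coding gene. Among the 32 that were over 1000 bp from the start of any transcript, the median width was 289 bp, the median GC content 42.9% and the median soft-masked share 39.1%. The 37812 such peaks in other protein-coding genes had medians of 341 bp, 49% and 11.1%. A match to the CTCF consensus with up to 1 mismatch, on either strand, was found in 2 of these 32, those in Vmn2r9 and Vmn2r76, which is 6.25% (1.73 to 20.1%), against 13.3% of the 37812. The OCT octamer ATGCAAAT, on either strand, was found in 2 of the 32, those in Vmn2r87 and Vmn2r111, against 2.12% of the 37812. The ESRRB word TCAAGGTCA, on either strand, was found in 1 of the 32, the coding-exon peak of Vmn2r90, against 3.01%. The intervals of all 3 motifs include the shares of the other genes (OCT 1.73 to 20.1%, ESRRB 0.554 to 15.7%). A match of letters is not a bound site.

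Few peaks surrounded the V2R genes at larger distances. Within 50000 bp of the start, 73 members, or 59.8% (51 to 68.1%), had at least 1 peak, against 91.4% of the other genes. The median count was 1 against 7, and 49 members (40.2%) had none, against 8.61%. A further 27 members had 1 peak, 21 had 2 and 8 had 6 or more. Vmn2r111 and Vmn2r112 had the most, 13 each, followed by Vmn2r49 and Vmn2r50 with 11 each and by Vmn2r87 and Vmn2r90 with 8 each. Together, 149 distinct peaks lay within 50000 bp of a V2R start, and 6 of them were within 1000 bp of the start of another protein-coding gene.

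**Figure D2:**
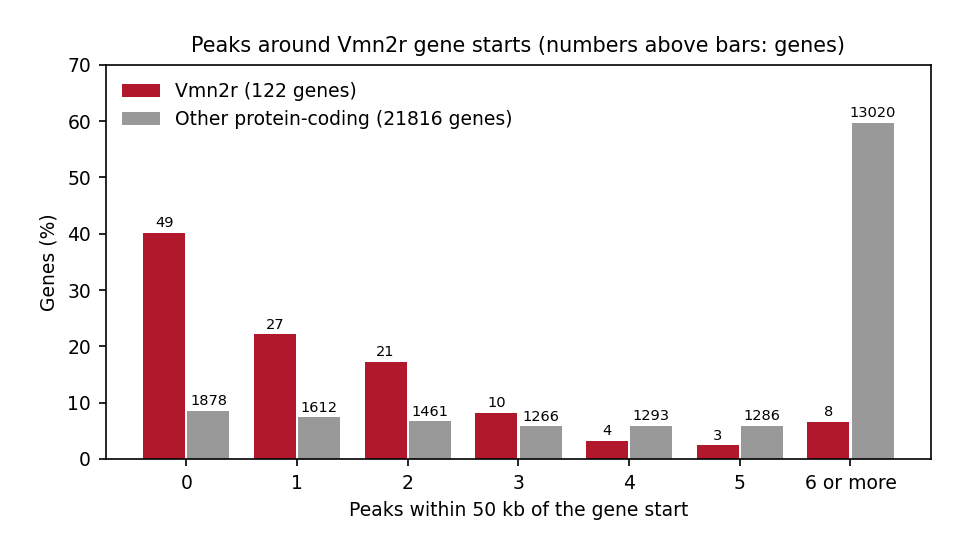
Share of genes (y axis, %) by the number of peaks within 50 kb of the gene start (x axis) for 122 Vmn2r genes and 21816 other protein-coding genes, with the number of genes above each bar. No peak was the commonest outcome for Vmn2r genes, with 49, and 6 or more was the commonest for the others, with 13020.

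The members with the most peaks differed in the sequence under them. Around Vmn2r111 and Vmn2r112 on chromosome 17, each gene held 3 peaks in its body, and peaks with all of their 31-mers found once in the genome lay between the genes. Around Vmn2r49 and Vmn2r50 on chromosome 7, no peak lay in either gene. The 2 windows held 12 distinct peaks, of which 11 lay between the genes and 10 counted for both. The first of these (chr7:10001324-10001734) had 24.4% unique 31-mers, and within 1000 bp of the starts of Vmn2r49 and Vmn2r50 the share was 8.83 and 10.7%. How reads from near-identical copies were placed there was not tested.

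By position, the members formed 18 groups when neighbours at most 1000000 bp apart were joined. There were 12 clusters of 2 or more, which held 116 members, and 6 members stood alone (Vmn2r18, Vmn2r28, Vmn2r118, Vmn2r120, Vmn2r121 and Vmn2r-ps159). The 18 spans covered 13.6 Mb and contained 201 peaks, or 14.8 per Mb of assembled sequence (12.8 to 17 by an exact Poisson interval for counting error), against 38.7 per Mb over all 21 chromosomes. The density depends on where a cluster is taken to end: joining members up to 2000000 bp apart took in 19.1 Mb with 604 peaks, or 31.6 per Mb. Of the 201 peaks, 37 overlapped a member, 21 lay within 1000 bp of the start of another protein-coding gene and the other 143 lay elsewhere between the members. Density was 10.0 per Mb in the gene bodies and 16.6 per Mb in the sequence between them. In 11 of the 12 clusters the density was lower than in the 500000 bp on both sides combined, in 8 it was lower than on either side alone, and in 11 it was lower than over the whole chromosome. The exception in the first and the last count was the cluster of Vmn2r84 to Vmn2r87 on chromosome 10. It had 8 peaks in 0.119 Mb, or 67.0 per Mb, against 33.5 per Mb on its sides combined. These sides held 14 and 6 peaks in less assembled sequence than the sides of the other clusters, so the 33.5 rests on a shorter stretch. Of the 4 members of this cluster, Vmn2r84, Vmn2r86 and Vmn2r87 all had a peak within 2000 bp of their start. Vmn2r85 held a peak of 1016 bp, the widest in any V2R gene.

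**Figure D3:**
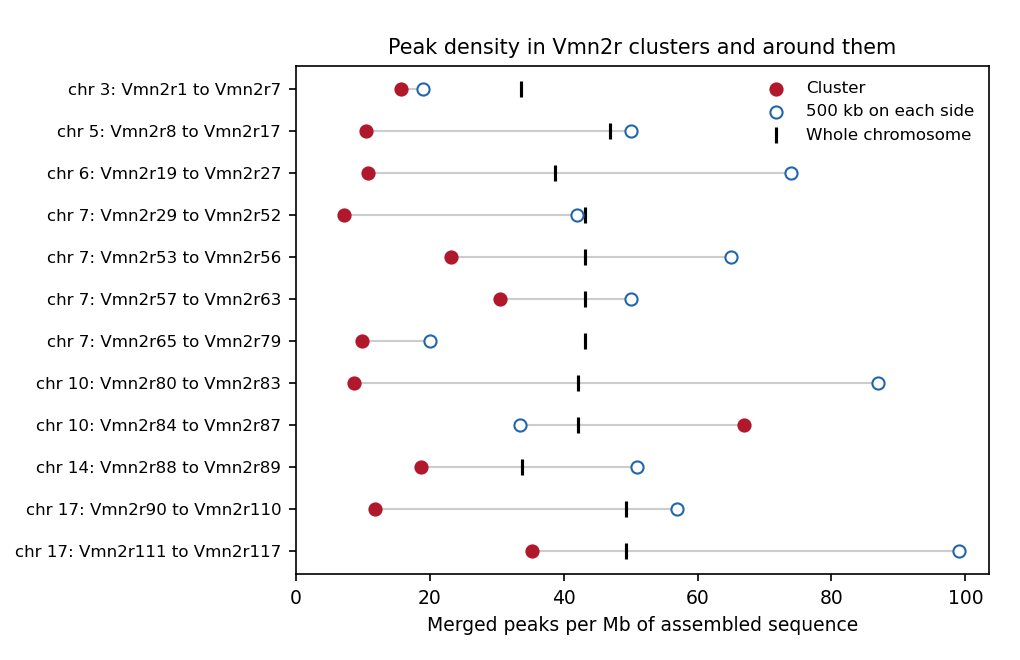
Peaks per Mb of assembled sequence (x axis) for the 12 Vmn2r clusters of 2 or more members (rows): filled points are the cluster, open points the 500 kb on both sides combined and vertical marks the whole chromosome. The cluster is lower than its combined sides in 11 of 12 rows, and the Vmn2r84 to Vmn2r87 cluster is higher, at 67.0 against 33.5 per Mb. The sides of that cluster hold less assembled sequence than 500 kb each.

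The largest of the 12 clusters had the fewest peaks per Mb. Vmn2r29 to Vmn2r52 on chromosome 7 (chr7:7231327-10176573) comprised 24 members over 2.95 Mb with 21 peaks, or 7.25 per Mb, against 42.0 per Mb on its sides combined. The sides were unequal, with 76 per Mb before the cluster and 8 per Mb after it, which is close to the cluster itself. Only 8.38% of its 31-mers occur once in the genome, the lowest share of the 18. Of its 24 members, 15 (62.5%) had no peak within 50000 bp, 1 (Vmn2r31) held a peak in its body and none had a promoter peak. Within the same cluster the 3 other protein-coding genes, Clcn4, Gm45783 and Gm45844, each had a peak within 1000 bp of its start, and 39.9, 22.3 and 45.5% of the 31-mers around these starts were unique. Around the 24 V2R starts of the cluster the median share was lower, at 3.81%. The Gm45844 peak is the one over the upstream RefSeq start of Vmn2r29. Without this cluster, 34.7% of the remaining 98 members had no peak within 50000 bp and the median distance to the nearest peak was 33646 bp.

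The cluster of Vmn2r90 to Vmn2r110 on chromosome 17 gave a second view at higher uniqueness. Its 22 members lay over 2.89 Mb in which 73.4% of the 31-mers were unique, and it had 34 peaks, or 11.8 per Mb. Its sides combined had 57 per Mb, with 94 before the cluster and 20 after it. Of the 34 peaks, 19 lay in the first 0.346 Mb, before Vmn2r124, where Spaca6, Has1, Fpr1, Fpr2 and Fpr3 are also found, and 3 members, Vmn2r90, Vmn2r124 and Vmn2r91, had a peak in their bodies. The cluster of Vmn2r65 to Vmn2r79 on chromosome 7, with 73.2% unique 31-mers and 15 members, had 9.96 per Mb. Its sides combined had 20 per Mb, with 26 before the cluster and 14 after it.

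**Figure D4:**
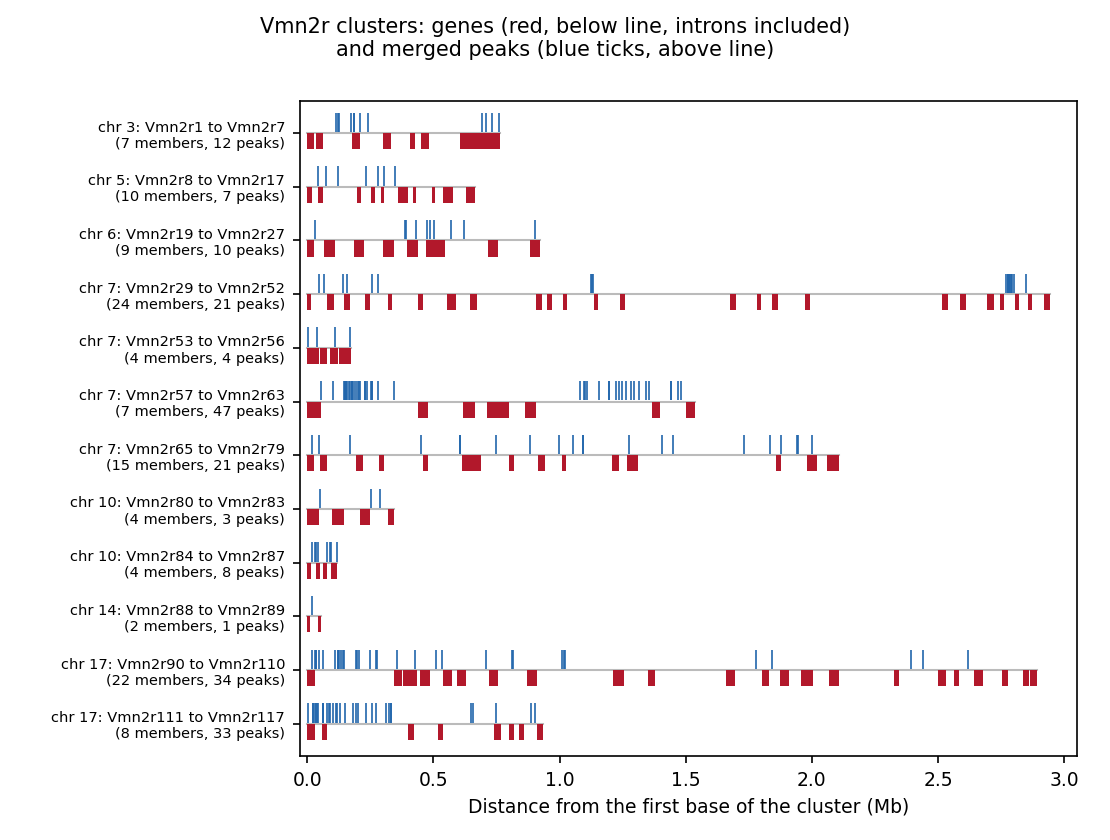
Map of the 12 Vmn2r clusters of 2 or more members, with distance from the first base of the cluster on the x axis (Mb), Vmn2r genes as red boxes below each line and merged peaks as blue ticks above it. Long stretches of genes without a peak are seen in the Vmn2r29 to Vmn2r52 cluster, and in the Vmn2r57 to Vmn2r63 cluster the 47 peaks gather between the members.

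Most of the promoter peaks inside the V2R clusters belonged to other genes. Of 45 other protein-coding genes that start inside a cluster, 17 had a promoter peak, a lower share than the 66.4% of all other protein-coding genes. The median ratio of observed to expected CpG was 0.455 for those with a promoter peak and 0.120 for those without. Those with a promoter peak included all 7 zinc finger genes of the Zfp series, which encode DNA-binding proteins. They also included 1 of 17 olfactory (Olfr) or type 1 vomeronasal (Vmn1r) receptor genes. The contrast was plainest between Vmn2r57 and Vmn2r63 on chromosome 7. That stretch had 47 peaks, or 30.6 per Mb, none of which overlapped any of its 7 members, while 10 of its 13 other protein-coding genes had a promoter peak, among them Zfp788, Zfp141, Zfp977, Zfp976 and Zfp975. Its members Vmn2r58, Vmn2r59, Vmn2r60 and Vmn2r61 lay 132569 to 367576 bp from the nearest peak. The remaining members were closer, with Vmn2r57 at 3322 bp, Vmn2r63 at 31967 bp and Vmn2r62 at 42830 bp. The median ratio of observed to expected CpG was 0.455 over the 7 Zfp starts of all clusters (0.307 to 0.650). At the median 73.2% of their 31-mers were unique (46.0 to 97.9%), beside 75% for all V2R genes. The parts of CpG and of uniqueness in this contrast were not tested.

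Members at the ends of clusters lay closer to peaks at the median than members within them. In the 11 clusters of at least 4 members, the median distance to the nearest peak was 24198.5 bp for the 22 first and last members and 49477 bp for the 92 between them. Among the former 3 of 22 had no peak within 50000 bp, and among the latter 45 of 92. Of all members without one, 15 lay in the Vmn2r29 to Vmn2r52 cluster. The ranges of distance overlapped, from 0 to 122455 bp for the first and last members and from 315 to 777671 bp for those between.

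Some long stretches of chromosome without any peak held several members. The longest such autosomal stretch with V2R genes ran over 1636947 bp of chromosome 7 (chr7:8364377-10001323) and contained the starts of 10 members: Vmn2r37 to Vmn2r40 and Vmn2r44 to Vmn2r49. Counted in assembled bases, it was number 8 of the 100512 peak-free intervals of the autosomes, whereas the median interval of all chromosomes was 7796 bp. The stretch before it, of 845682 bp, held 7 members and was number 60, and one of 757597 bp on chromosome 17 held Vmn2r97, Vmn2r98 and Vmn2r99 and was number 92. The 100 longest autosomal intervals together contained 20 V2R starts, all in these 3 stretches, with 10 and 7 in those of the chromosome 7 cluster. No count of other protein-coding starts stands beside this, so it does not tell whether 20 is many. The 2 stretches of chromosome 7 are parted by 3 peaks, of 496, 186 and 206 bp. The first (chr7:8357817-8358312) holds no soft-masked base and 36.9% unique 31-mers, and the last (chr7:8364171-8364376) is 92.2% soft-masked with 29.5% unique 31-mers.

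V2R gene starts share a sequence composition that the rule did not use. The ratio of observed to expected CpG within 500 bp of the start had a median of 0.101 over the members (0 to 0.277) and of 0.557 over the other genes, and the GC content was 36.5% against 54.8%. The low ratio was not particular to V2R genes. Its median was 0.0905 over Vmn1r genes, 0.106 over Olfr genes and 0.116 over beta-defensin genes. The median GC content was also 36.5% over Olfr genes. It was 45.2% over beta-defensin genes, and that of Vmn1r genes lay between these values. In RefSeq promoters the median was 1 CG dinucleotide for V2R genes and 14 over all 20150 promoters of protein-coding genes, and 34 of 116 V2R promoters had none. The GC box GGGCGG, on either strand, occurred in 0 of 116 V2R promoters and in 47.8% of all. The TATA box word TATAAA occurred in 22.4% and 12.1%, and CCAAT in 29.3% and 37.8%. The octamer ATGCAAAT occurred in 7 V2R promoters (6.03%), against 1.55% of all, and 4 of these were the 4 neighbours Vmn2r80 to Vmn2r83 of 1 cluster on chromosome 10, which are not independent. Of these 7 genes 5 had a peak within 50000 bp and none had a promoter peak, against 59.8% and 2.46% of all 122 members. So few genes do not tell whether either count differs from those shares. These words are short and their matches say nothing of binding.

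Promoter peaks followed CpG content over the genome, and V2R genes fell at its low end. Among the other genes, 4.60% of those with a CpG ratio under 0.1 had a promoter peak, 12.5% from 0.1 to 0.2, 36.5% from 0.2 to 0.4 and 99% from 0.6. The V2R genes had 1 of 59, 1 of 51 and 1 of 12 in the first 3 ranges, and none in any higher range. In the lowest range the V2R share of 1.69% (0.300 to 9.0%) overlapped that of the other genes, and from 0.1 to 0.2 the interval around the share of 1.96% lay below it.

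The uniqueness of the sequence moved with the result as well. Within 1000 bp of the start, the median share of unique 31-mers was 75% over the V2R genes (quartiles 34.9 and 89.9%) and 98.3% over the other genes. None of the 28 members under 25% had a promoter peak, against 7.42% of the other genes, and 18 of these 28 had no peak within 50000 bp. The median count within 50000 bp was 0 both for these members and for the 1038 other genes under 25%. Of the 31 members with at least 90% unique 31-mers, 1 (Vmn2r3) had a promoter peak, or 3.23% (0.572 to 16.2%). Of the same 31, 8 had a peak in the gene body and 22 (71.0%) had one within 50000 bp. No share of other genes stands beside these counts of 8 and 22, so they do not tell whether either is many. The median count within 50000 bp was 1 for the 31 members and 8 for the other genes with at least 90% unique 31-mers. It was 5 for those other genes with a CpG ratio under 0.4. The other genes with at least 90% unique 31-mers and a CpG ratio under 0.4 had a promoter peak in 26.8% (25.7 to 28%) of 5587 cases. These genes include 741 Olfr and 64 Vmn1r genes, which also have few promoter peaks, and are not matched to the V2R genes in CpG. With at least 90% unique 31-mers and a CpG ratio under 0.2, 1 of 29 V2R genes had a promoter peak (3.45%, 0.611 to 17.2%), against 12.3% (11.2 to 13.6%) of 2774 other genes. These intervals overlap. The part of uniqueness in these values was not tested.

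**Figure D5:**
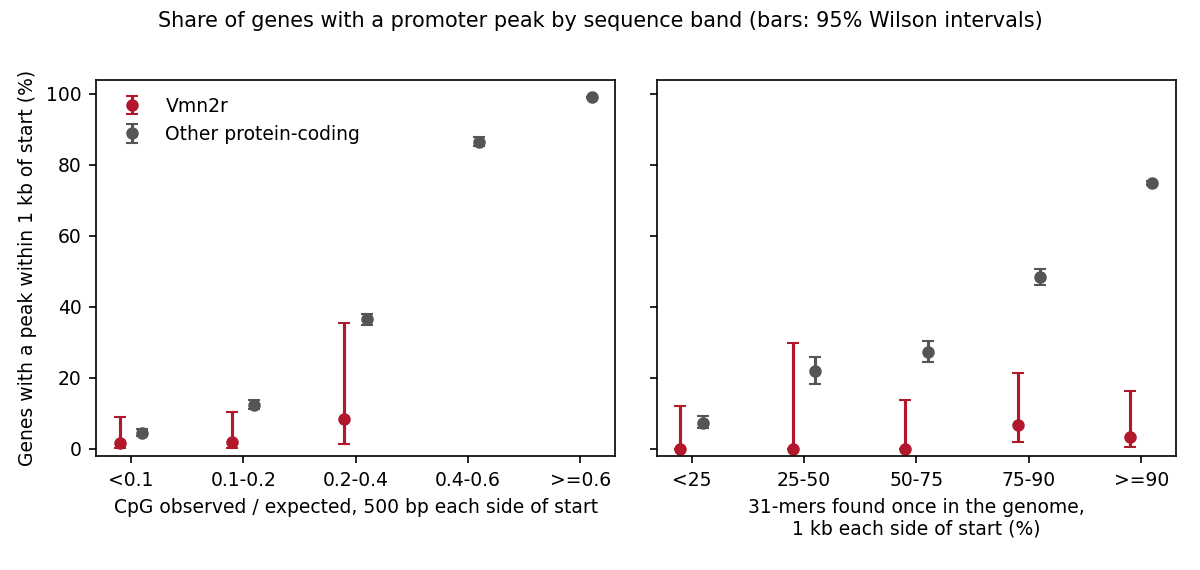
Share of genes with a peak within 1 kb of the start (y axis, %) by CpG ratio (left) and by the share of 31-mers found once in the genome (right), for Vmn2r genes (red) and other protein-coding genes (grey), with 95% Wilson intervals. Vmn2r genes are present only in the 3 lowest CpG ranges, and with at least 90% unique 31-mers 3.23% of them have a peak.

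The other chemosensory receptor families also had few promoter peaks. A promoter peak was found for 6 of 209 Vmn1r genes (2.87%, 1.32 to 6.12%), which encode the receptors of apical vomeronasal neurons, and for 22 of 1135 Olfr genes (1.94%, 1.28 to 2.92%), and these intervals overlap that of the V2R genes. With at least 90% unique 31-mers and a CpG ratio under 0.4, the counts were 2 of 64 Vmn1r genes and 14 of 741 Olfr genes. The median distance to the nearest peak was 64986 bp for Vmn1r genes (50494 to 79208 bp) and 32371 bp for Olfr genes (29950 to 35085 bp), against 40078.5 bp for V2R genes, whose interval lies below that of the Vmn1r genes. A peak lay within 50000 bp of 42.6% of Vmn1r starts (36.1 to 49.4%), below the interval of the V2R genes, and of 64.6% of Olfr starts (61.8 to 67.3%). Peaks in the gene body were found for 5.26% of Vmn1r and 5.46% of Olfr genes, below the 18.9% of V2R genes, but these genes are shorter, with medians of 6796 and 6002 bp. Per 100000 bp of gene the values were 0.832 for Vmn1r and 0.951 for Olfr, against 0.999 for V2R. The beta-defensin genes (Defb), another clustered family, had 3 promoter peaks in 42 genes (7.14%, 2.46 to 19%). Among 115 Vmn2r pseudogenes 6 had a promoter peak (5.22%), and 5 of these were Vmn2r-ps15 to Vmn2r-ps19 on chromosome 4, each 484 to 575 bp from a peak.

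Genes that work with the V2Rs were described from a list of 35, of which 19 had a promoter peak, or 54.3% (38.2 to 69.5%), against 66.4% of the genes other than V2R genes. All 9 genes of neuron identity and fate had one, among them Bcl11b and Tfap2e, transcription factors of basal vomeronasal neurons, with nearest peaks at 308 and 0 bp. So did all 4 genes of axon guidance and adhesion, Robo2, Nrp2, Kirrel2 and Kirrel3. Of the 8 genes of signal transduction, 5 had one: Gnao1, the G protein subunit of basal neurons, Gnai2, Gng8, Itpr3 and, at 755 bp, Trpc2, the cation channel of the organ. Plcb2, Ano1 and Ano2 did not, at 5366, 3593 and 28535 bp. Of the 11 surface partners only B2m had one. The 9 H2-M genes of the list, which encode class Ib major histocompatibility molecules made in V2R neurons, had nearest peaks from 4805 bp (H2-M1) to 58515 bp (H2-M11), and Calr4, a chaperone gene, was at 6748 bp. None of the 3 ligand genes had one, with Esp1 at 96705 bp, Mup20 at 22642 bp and Mup3 at 16235 bp. The genes with a promoter peak in this list are mostly CpG-rich, such as Gnao1 at a CpG ratio of 0.805, while the H2-M genes ranged from 0.0618 to 0.227, in the range of the V2R genes.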

How the data were processed

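ATAC-seq peaks were analysed. The authors aligned paired reads to GRCm38 with STAR 2.6.1c, removed duplicates with Picard, called peaks with MACS 2.1.1.20160309 and used BEDTools to merge the peaks of the libraries in dox. The deposited file lists coordinates in base pairs, with no score, count or signal, so depth is unknown. The methods describe removing peaks over 5000 bp, of which 7 remain, and regions of input and blacklist, which could not be tested. Each protein-coding gene counted once, at its annotated 5′ end, and peaks counted when they overlapped by at least 1 bp. Uniqueness was counted for 31-mers on both strands of the 21 chromosomes. Peaks ended within the chromosomes of GRCm38.p6, and 0 were centred on unknown bases. Counting was tested on simulated data, with 200 of 200 genes recovered for each of 4 measures. No test over members was run, since the list has no replicates. The members and gene lists were chosen with earlier results of these data known. Named were members with a promoter peak, those nearest to the 1000 bp limit, the 5 with most peaks within 50000 bp (6 with ties), the 5 farthest from a peak, Vmn2r1 to Vmn2r7 and the pathway list. Others named were chosen after their values were seen. Software was Python 3.11.15 with scipy 1.17.1, numba 0.67.0, numpy 2.4.6, matplotlib 3.10.9 and pandas 2.3.3.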

Additional observations from a re-analysis of the deposited data

How the results depend on the processing

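Of 35 alternatives, 7 of them chosen after seeing the data, 25 stayed within the interval of the reported value, and in all 35 the V2R value lay on the same side of the other protein-coding genes. Keeping peaks of at least 300 bp moved 5 values: the promoter share to 0.820%, the gene body share to 9.84%, the gene body density to 0.432 per 100000 bp, the median count within 50000 bp to 0 and the median distance to the nearest peak to 64535 bp. It also moved the cluster density to 7.66 per Mb, beside 24.8 over the genome. The median count was 0 within 20000 bp and 2 within 100000 bp, where other genes had 3 and 14. Joining members up to 250000 bp apart gave 11.5 peaks per Mb and up to 2000000 bp gave 31.6. Shares under looser promoter limits reached 5.74% within 2000 bp. Using 24-mers gave a median of 65.1% unique words. Depth, peak height, input regions and the placement of reads with several matches limit all values and were not tested.

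No paired analysis was possible because single libraries have no values in the merged peaks. The planned limma comparison of the constructs, the fit without the replicate term and leaving out each replicate were therefore not run.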
